A study of Marchantia polymorpha with 9 samples.

Results

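Phenylalanine ammonia lyase (PAL) and 4-coumaroyl-CoA ligase (4CL) open and close the general phenylpropanoid pathway, and the 4 genes described here are 2 PAL genes, Mapoly0005s0086 and Mapoly0005s0089, and 2 4CL genes, Mapoly0002s0100 and Mapoly0005s0102. They were taken by their identifiers from the 82 shikimate and phenylpropanoid genes that the study listed, out of 19287 genes in the expression table. By their identifiers, 3 of the 4 genes lie on scaffold 5, and Mapoly0002s0100 lies on scaffold 2. Thalli of the liverwort *Marchantia polymorpha* were grown under continuous light without treatment, and RNA-Seq was done at an age of 3 weeks. The groups were the overexpressor lines MpBHLH12ox#2 and MpBHLH12ox#3, which the sample labels call MpGL3ox, and the untransformed male wild type Tak-1, with 3 replicates in each group by the labels. Both lines were made in Tak-1 and carry the basic helix-loop-helix (bHLH) gene *MpBHLH12* fused to Citrine, a yellow fluorescent protein, under a constitutive promoter. Each is 1 independent transformant, so an effect of the transgene and one of transformation cannot be told apart, and the RNA came from pooled pieces of whole thallus, where fewer cells of a type and less RNA per cell cannot be told apart.

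PAL removes ammonia from phenylalanine to give cinnamate, cinnamate 4-hydroxylase (C4H) turns cinnamate into coumarate, and 4CL joins coumarate to coenzyme A. Chalcone synthases and related polyketide synthases then use coumaroyl-CoA for flavonoids, and in liverworts bibenzyls such as marchantins are built from a related CoA ester. PAL and 4CL are encoded by gene families in land plants, whose members can differ in level and in regulation. In the genome annotation that the study lists, Mapoly0005s0086 carries the enzyme class of phenylalanine ammonia lyase, whereas Mapoly0005s0089 carries the aromatic amino acid lyase domain and the ammonia lyase activity term without that class. Both 4CL genes carry the AMP-binding enzyme domain of acyl-CoA synthetases. Mapoly0005s0102 is also annotated there as an OPC CoA ligase, which in Arabidopsis activates a precursor of jasmonate, so its name as a 4CL rests on the study's pathway list.

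Expression is given as FPKM (fragments scaled to gene length and to the fragments of the library), a unit corrected for gene length, and the authors gave a single mean for each group. The spread between the replicates and the depth of the libraries are therefore unknown, no test across replicates could be made from it, and every difference below describes these averages. The overexpressed gene itself, *MpBHLH12* (Mapoly0031s0161), averaged 547.6 FPKM in MpBHLH12ox#2 and 474.6 FPKM in MpBHLH12ox#3, against 20.3 FPKM in Tak-1. The elongation factor gene EF1α (Mapoly0024s0116), the standard of the study's quantitative PCR, was higher than Tak-1 by 0.19 in MpBHLH12ox#2 and by 0.15 in MpBHLH12ox#3 on the log2(FPKM + 1) scale. Across the 13324 genes that reached 1 FPKM in at least 1 group (the expressed genes), the median difference from Tak-1 was below 0.01 on this scale in each line.

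The 4 genes differed from Tak-1 by amounts common in the table. On the log2(FPKM + 1) scale, the median size of the mean difference of both lines from Tak-1 was 0.16 over the 13324 genes, whatever the direction, and 3 of the 4 genes had a larger one. None of the 4 differed by 1 or more in the same direction in both lines, a size that 3.08% of the 13324 genes reached, and none did at a size of 0.5, which 11.2% reached. With 4 genes, a count of 0 lies near both shares. The largest mean difference of the 4 was 0.27, in Mapoly0002s0100, and the smallest was 0.01, in Mapoly0005s0102. The mean differences of the 4 genes had a median of 0.20, beside a signed median of 0.01 over all 13324 genes. A pseudocount of 1 was used, so the differences of genes with low FPKM are understated. The comparisons of both lines share the same Tak-1 average, and any error of that average enters both.

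**Figure D1:**
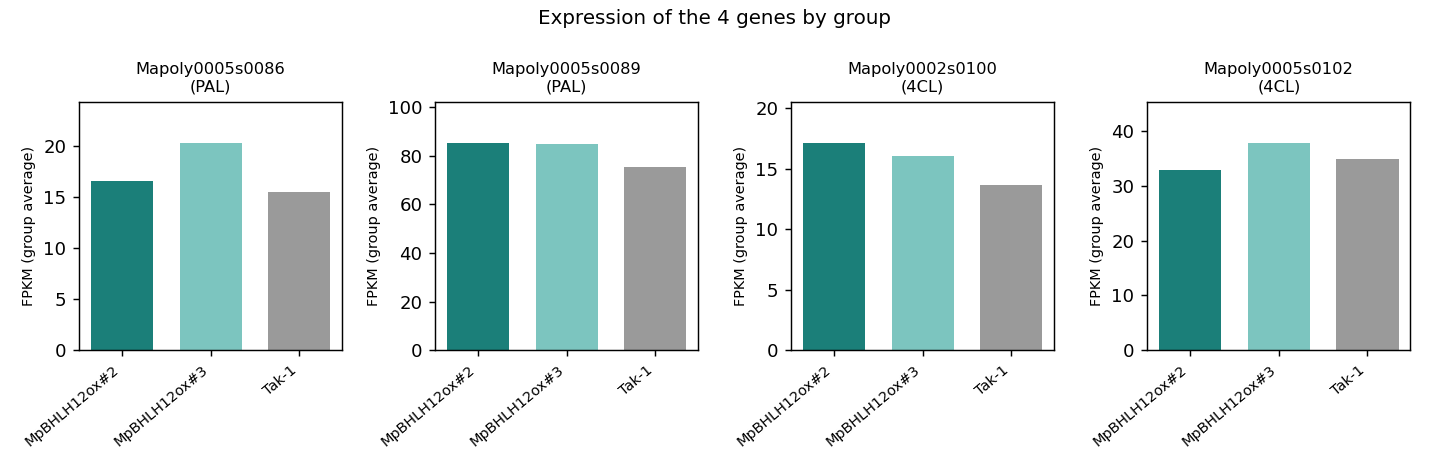
FPKM of the 4 genes (vertical axes, starting at 0, with a scale of their own in each panel) in MpBHLH12ox#2, MpBHLH12ox#3 and Tak-1. Each bar is the authors' average of a group, without an error bar because no replicate values were analysed; Mapoly0005s0089 has the highest bars, at 85.2, 85.0 and 75.6 FPKM.

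The PAL gene Mapoly0005s0089 was the most abundant of the 4 transcripts in each group. It averaged 85.2 FPKM in MpBHLH12ox#2 and 85.0 FPKM in MpBHLH12ox#3, against 75.6 FPKM in Tak-1. The averages of the lines lay close together, 0.004 apart on the log2 scale, and 97.8% of the 13324 genes differed at least as much between the lines. The level in MpBHLH12ox#2 was 12.7% above Tak-1 and that in MpBHLH12ox#3 was 12.4% above it, which gave log2 differences of 0.17 in both lines. A difference of this size was common: 49.9% of the genes had one at least as large in MpBHLH12ox#2 and 49.3% in MpBHLH12ox#3. It was also the size seen in the standard EF1α, whose mean difference was 0.17.

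The PAL gene Mapoly0005s0086, 3 numbers away on the same scaffold, was expressed at a lower level. It averaged 16.6 FPKM in MpBHLH12ox#2 and 20.3 FPKM in MpBHLH12ox#3, against 15.5 FPKM in Tak-1. The lines did not give the same value here, since the level was 6.83% above Tak-1 in MpBHLH12ox#2 and 30.7% above it in MpBHLH12ox#3. The log2 differences were 0.09 and 0.37, so the distance between the lines, 0.28, exceeded their mean difference from Tak-1, 0.23. Among all 13324 genes, 11.3% lay at least this far apart between the lines. In MpBHLH12ox#3, 23.7% of the genes differed from Tak-1 at least as much as Mapoly0005s0086, and in MpBHLH12ox#2 70.2% did. The transcript of Mapoly0005s0089 was 5.13 times that of Mapoly0005s0086 in MpBHLH12ox#2 and 4.18 times in MpBHLH12ox#3, against 4.86 times in Tak-1, on the FPKM scale. The ratio in Tak-1 thus lay between those of the lines.

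The 4CL gene Mapoly0002s0100 was the lowest of the 4 genes in Tak-1. It averaged 17.1 FPKM in MpBHLH12ox#2 and 16.0 FPKM in MpBHLH12ox#3, against 13.6 FPKM in Tak-1. Both lines were above the wild type, by 25.7% in MpBHLH12ox#2 and 18.0% in MpBHLH12ox#3. The log2 differences of 0.31 and 0.22 lay 0.09 apart, which is less than either of them. Still, 29.2% of the 13324 genes differed at least as much in MpBHLH12ox#2, and 39.4% did in MpBHLH12ox#3.

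Mapoly0005s0102, a 4CL by the study's list and an OPC CoA ligase by the genome annotation, did not keep 1 direction. It averaged 32.9 FPKM in MpBHLH12ox#2 and 37.8 FPKM in MpBHLH12ox#3, against 34.9 FPKM in Tak-1. The Tak-1 value lay between those of the lines, with log2 differences of -0.08 in MpBHLH12ox#2 and 0.11 in MpBHLH12ox#3. The mean difference of 0.01 averages these opposite values. By size, 72.0% of the 13324 genes differed from Tak-1 at least as much in MpBHLH12ox#2 and 63.5% in MpBHLH12ox#3, and 20.5% lay at least as far apart between the lines, where Mapoly0005s0102 had a distance of 0.19. The ratio of Mapoly0005s0102 to Mapoly0002s0100 on the FPKM scale was 1.92 in MpBHLH12ox#2 and 2.35 in MpBHLH12ox#3, against 2.57 in Tak-1. Mapoly0005s0102 was therefore the more abundant of the pair in each group.

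The order of the 4 levels was not the same in each group. Mapoly0005s0089 came first and Mapoly0005s0102 second in MpBHLH12ox#2, in MpBHLH12ox#3 and in Tak-1. Mapoly0005s0086 stood above Mapoly0002s0100 in MpBHLH12ox#3 and in Tak-1 but below it in MpBHLH12ox#2, where the averages were 16.6 and 17.1 FPKM. Whether these neighbours in the order differ beyond the replicate spread cannot be read from averages. Among all 19287 genes ranked by FPKM, Mapoly0005s0089 stood at rank 1075 in MpBHLH12ox#2 and 1099 in MpBHLH12ox#3, against 1281 in Tak-1. Mapoly0005s0102 stood at ranks 3093 and 2701, against 2986 in Tak-1. Mapoly0005s0086 and Mapoly0002s0100 lay between ranks 4953 and 6682.

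**Figure D2:**
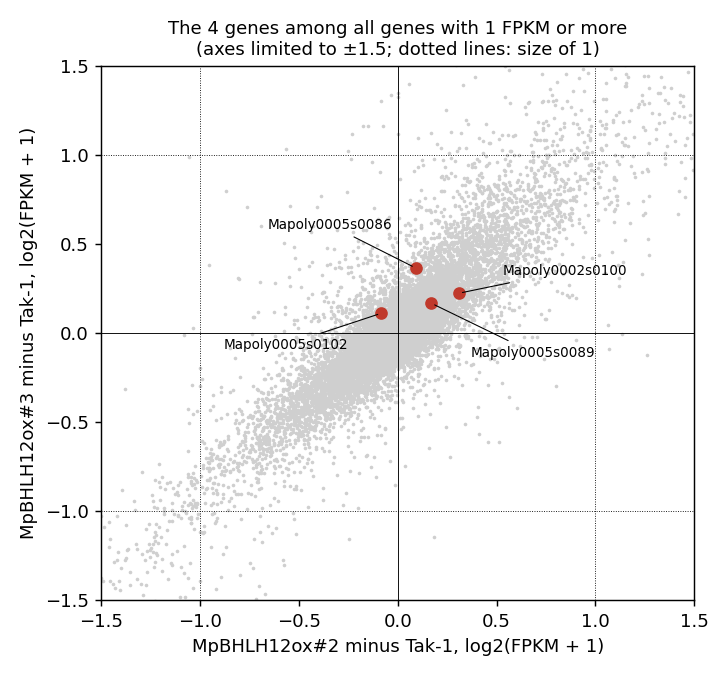
Difference of log2(FPKM + 1) from Tak-1 in MpBHLH12ox#2 (horizontal axis) and in MpBHLH12ox#3 (vertical axis), with 1 grey point for each expressed gene and red points for the 4 genes. Axes stop at 1.5 in both directions, both differences share the Tak-1 average, and the red points lie inside the dotted lines at a size of 1, between -0.08 and 0.31 on the horizontal and 0.11 and 0.37 on the vertical axis.

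Next, the 4 genes were set beside the other genes of the first 3 steps. The study's list holds 10 PAL, 3 C4H and 3 4CL genes, and each of these 16 had 1 FPKM or more in some group. Of the 10 PAL genes, 1 was higher by 1 or more in both lines and 4 were higher by 0.5 or more, beside 1.56% and 6.16% of all 13324 genes. None of the 10 was lower at either size, beside 1.52% and 5.07% of all genes. The PAL gene that reached a size of 1 was Mapoly0132s0049, with 155.1 FPKM in MpBHLH12ox#2 and 161.0 FPKM in MpBHLH12ox#3, against 53.6 FPKM in Tak-1. The 4 PAL genes of scaffold 70 (Mapoly0070s0061, Mapoly0070s0065, Mapoly0070s0068 and Mapoly0070s0071) had mean log2 differences between 0.49 and 0.81. Mapoly0005s0086 and Mapoly0005s0089 came after these 5 genes, in places 6 and 7 of the 10 by mean difference. Below them stood Mapoly0009s0173 at 0.06, Mapoly0044s0114 at -0.04 and Mapoly0014s0211 at -0.04. The value of Mapoly0044s0114 is the mean of opposite differences, -0.58 in MpBHLH12ox#2 and 0.50 in MpBHLH12ox#3. The median over the 8 PAL genes other than the described pair was 0.51, beside 0.23 and 0.17 for Mapoly0005s0086 and Mapoly0005s0089. Whether the pair differs from the other PAL genes was not tested, as no replicate values were analysed.

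The mean differences of the 3 4CL genes ranged from 0.01 to 0.44. Mapoly0197s0014, the only one of the 3 outside the described pair, averaged 92.6 FPKM in MpBHLH12ox#2 and 89.3 FPKM in MpBHLH12ox#3, against 66.9 FPKM in Tak-1. Its log2 differences were 0.46 and 0.41, so Mapoly0002s0100 and Mapoly0005s0102 were the 4CL genes with the smaller mean differences. None of the 3 reached a size of 0.5 in both lines, a size that 11.2% of all 13324 genes reached. With only 3 genes, such a count lies near that share. Between PAL and 4CL, the C4H gene Mapoly0163s0018 had 335.4 FPKM in MpBHLH12ox#2 and 342.5 FPKM in MpBHLH12ox#3, against 197.8 FPKM in Tak-1, and log2 differences of 0.76 and 0.79. The remaining C4H genes, Mapoly0081s0008 and Mapoly0081s0009, had mean differences of 0.40 and 0.41, above those of each of the 4 described genes.

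**Figure D3:**
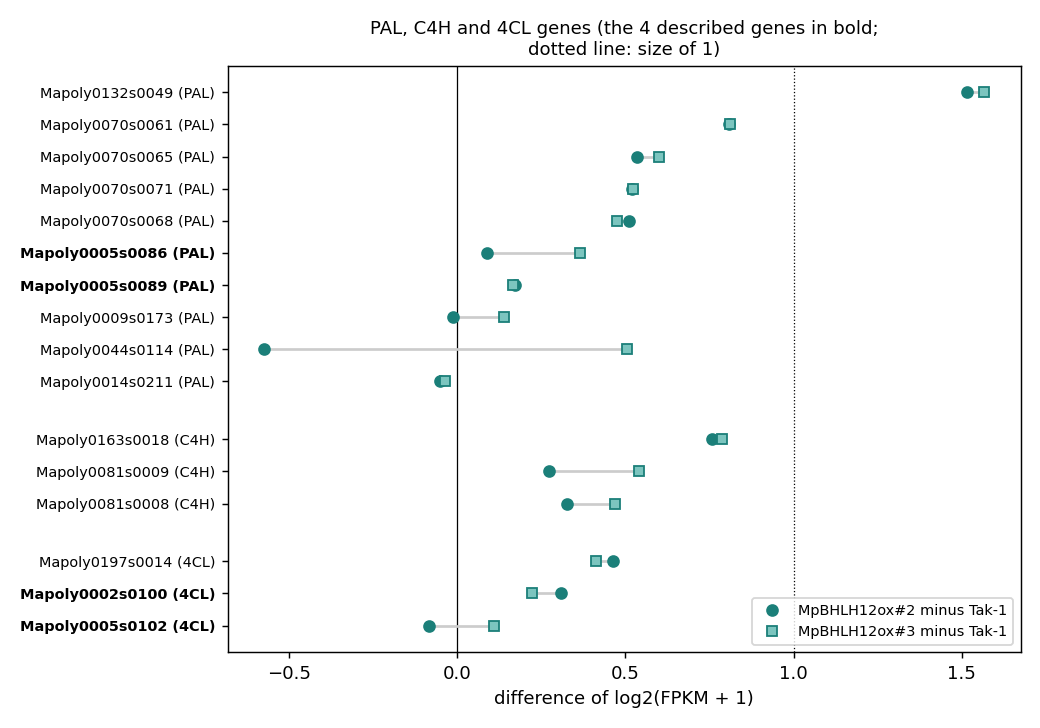
Difference of log2(FPKM + 1) from Tak-1 (horizontal axis) for the 10 PAL, 3 C4H and 3 4CL genes, with circles for MpBHLH12ox#2 and squares for MpBHLH12ox#3. The described genes, in bold, have mean differences of 0.23, 0.17, 0.27 and 0.01, while Mapoly0132s0049 at the top lies beyond the dotted line at 1 in both lines.

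Because FPKM is per length, levels of genes can be added within a step. The 10 PAL genes summed to 358.6 FPKM in MpBHLH12ox#2 and 372.4 FPKM in MpBHLH12ox#3, against 227.2 FPKM in Tak-1. Mapoly0005s0089 and Mapoly0005s0086 together held 28.4% of this sum in MpBHLH12ox#2 and 28.3% in MpBHLH12ox#3, against 40.1% in Tak-1. Both genes were still above their Tak-1 level in each line, by between 6.83% and 30.7%, both in Mapoly0005s0086. Mapoly0005s0089 was the most abundant PAL transcript in Tak-1, with 33.3% of the sum there. In the lines it took second place after Mapoly0132s0049, with 23.8% in MpBHLH12ox#2 and 22.8% in MpBHLH12ox#3. Mapoly0132s0049 held 43.3% and 43.2% in the lines, against 23.6% in Tak-1. Mapoly0005s0086 held 4.63% in MpBHLH12ox#2 and 5.45% in MpBHLH12ox#3, against 6.84% in Tak-1. Of the gain in the PAL sum over Tak-1, the described pair made up 8.12% in MpBHLH12ox#2 and 9.73% in MpBHLH12ox#3, whereas Mapoly0132s0049 made up 77.2% and 73.9%.

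The 4CL sum differed less. It was 142.6 FPKM in MpBHLH12ox#2 and 143.1 FPKM in MpBHLH12ox#3, against 115.4 FPKM in Tak-1, 23.5% and 24.0% above the wild type. Mapoly0002s0100 and Mapoly0005s0102 together held 35.1% of it in MpBHLH12ox#2 and 37.6% in MpBHLH12ox#3, against 42.0% in Tak-1. Mapoly0005s0102, a 4CL by the study's list only, held 23.1% and 26.4% in the lines, against 30.3% in Tak-1. The 4CL sum and its ratios to other steps therefore depend on that naming. Mapoly0197s0014 was the most abundant 4CL transcript in each group. Of the gain in the 4CL sum over Tak-1, Mapoly0197s0014 made up 94.6% in MpBHLH12ox#2 and 80.9% in MpBHLH12ox#3. The described pair made up 5.39% and 19.1%. For every unit of PAL transcript there were 0.40 units of 4CL transcript in MpBHLH12ox#2 and 0.38 in MpBHLH12ox#3, against 0.51 in Tak-1, on the summed FPKM scale. This order rested on Mapoly0132s0049, as without it the values were 0.70 in MpBHLH12ox#2 and 0.68 in MpBHLH12ox#3, against 0.66 in Tak-1. The C4H sum was 368.6 FPKM in MpBHLH12ox#2 and 380.9 FPKM in MpBHLH12ox#3, against 224.4 FPKM in Tak-1. The PAL to C4H ratios were 0.97 and 0.98 in the lines and 1.01 in Tak-1. The gains of the PAL and C4H sums over Tak-1 rested mostly on 1 gene of each step. Mapoly0163s0018 made up 95.4% and 92.4% of the gain in the C4H sum. Without Mapoly0132s0049 the PAL sum was 203.5 FPKM in MpBHLH12ox#2 and 211.5 FPKM in MpBHLH12ox#3, against 173.6 FPKM in Tak-1, well below the C4H sum in each group. How the authors' counting treated fragments that fit several members of a gene family was not stated in the methods, so the split between members is uncertain.

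**Figure D4:**
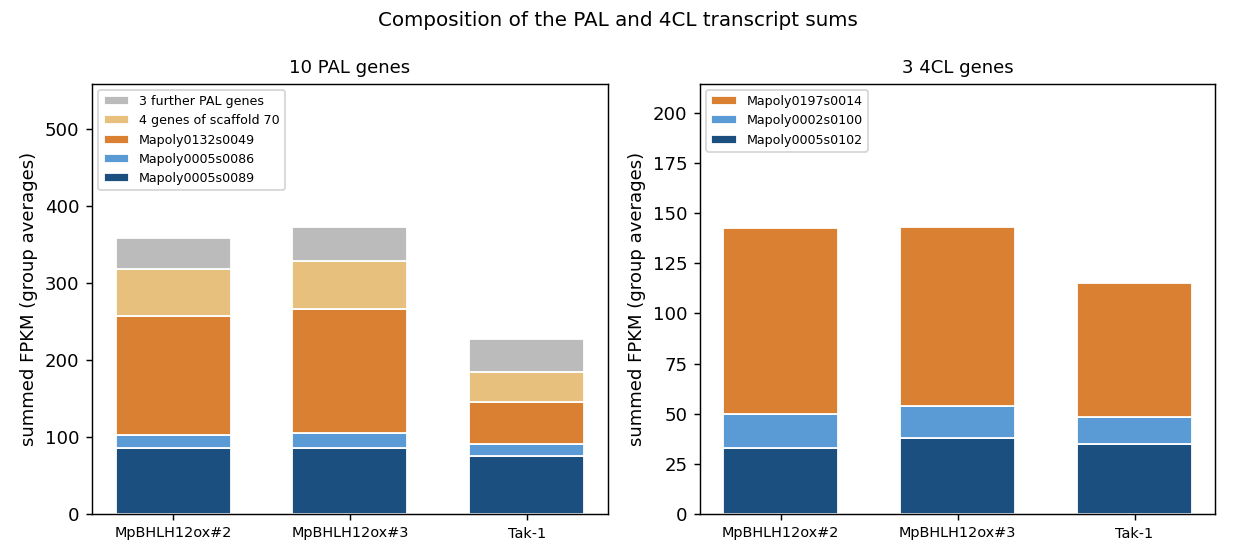
Summed FPKM of the 10 PAL genes (left) and the 3 4CL genes (right) in MpBHLH12ox#2, MpBHLH12ox#3 and Tak-1, stacked by gene or group of genes, from the authors' group averages without error bars. The described genes are the blue segments at the base, and in the left panel they add to 101.8, 105.3 and 91.2 FPKM while the orange segment of Mapoly0132s0049 is 155.1, 161.0 and 53.6 FPKM.

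The 4 genes were then compared with the rest of the pathway list. Of its 78 other genes, 70 were expressed, and by a size of 1 in both lines 10 of them were higher and 1 was lower, beside 1.56% and 1.52% of all 13324 genes. Their mean differences had a median of 0.31, against 0.20 over the 4 described genes. The 24 polyketide/chalcone synthase genes belong to a family whose chalcone synthases use the product of 4CL. They included 19 expressed genes with a median of 0.46, and 5 of these were higher by 1 or more in both lines, beside 1.56% of all genes. The 13 genes of the shikimate pathway and of phenylalanine formation, which supply PAL, had a median of 0.12. Of these 13, 2 were higher by 0.5 or more in both lines and none reached a size of 1, beside 6.16% and 1.56% of all genes. The medians of the PAL, C4H and 4CL groups, with the described genes included, were 0.36, 0.41 and 0.27. The list was drawn by the study from other publications on *M. polymorpha*.

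On scaffold 5, Mapoly0005s0086, Mapoly0005s0089 and Mapoly0005s0102 lie within a run of 17 gene numbers. Of the 34 other genes with numbers from 76 to 112, 26 were expressed. None of these 26 differed by 1 or more in both lines, beside 3.08% of all genes, and their mean differences had a median of 0.01. They ranged from -0.67 in Mapoly0005s0112 to 0.31 in Mapoly0005s0082. Mapoly0005s0112 had 0.37 FPKM in MpBHLH12ox#2 and 0.33 FPKM in MpBHLH12ox#3, against 1.15 FPKM in Tak-1, so it counted as expressed through Tak-1 alone and the pseudocount shrank its difference. Mapoly0005s0089 had the highest FPKM of this stretch in Tak-1. The gene before Mapoly0005s0086, the amidohydrolase gene Mapoly0005s0085, had log2 differences of 0.20 in MpBHLH12ox#2 and 0.41 in MpBHLH12ox#3, and the gene before Mapoly0005s0089, Mapoly0005s0088, had 0.08 and 0.24. For Mapoly0005s0086 the values were 0.09 and 0.37, whereas Mapoly0005s0089 had 0.17 in both lines. Whether neighbouring genes vary together was not tested. Mapoly0005s0087, between the PAL genes, stayed below 1 FPKM in each group. The cytochrome P450 gene Mapoly0005s0090, next to Mapoly0005s0089, was lower than Tak-1 by 0.19 and 0.28. Beside Mapoly0005s0102, the aspartyl protease gene Mapoly0005s0101 had differences of 0.24 and 0.16, and the leucine-rich repeat kinase gene Mapoly0005s0103 had -0.47 and -0.35. Mapoly0005s0110, named here for its AMP-binding enzyme domain like that of the 4CL genes, had 3.90 FPKM in MpBHLH12ox#2 and 4.94 FPKM in MpBHLH12ox#3, against 4.41 FPKM in Tak-1. Its differences of -0.14 and 0.14 had opposite directions, as in Mapoly0005s0102, but this was not particular to these genes. Of the 26 expressed genes, 10 were higher and 12 were lower in both lines, and the others kept no common direction. Over all 13324 genes, 5528 were higher and 5360 were lower in both lines. Over the whole scaffold, 233 of 293 genes were expressed by this measure, and 1 was higher and 2 were lower by 1 or more in both lines, beside 1.56% and 1.52% of all genes.

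**Figure D5:**
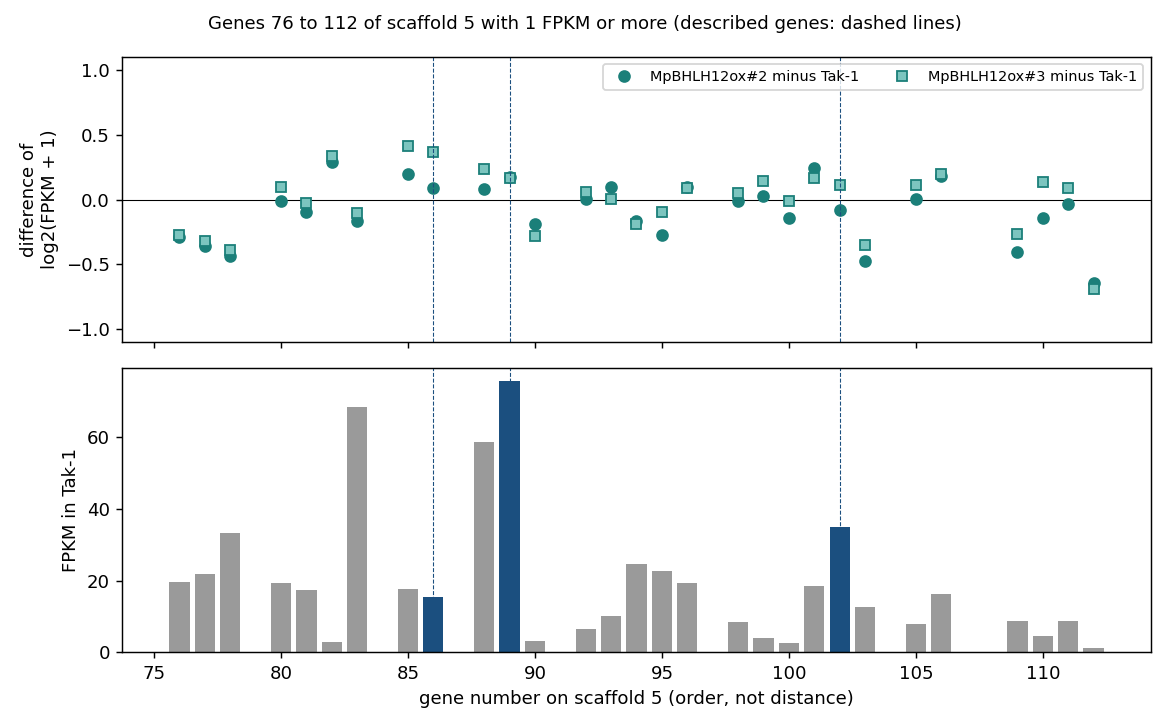
Upper panel, difference of log2(FPKM + 1) from Tak-1 for genes 76 to 112 of scaffold 5 with 1 FPKM or more, with circles for MpBHLH12ox#2 and squares for MpBHLH12ox#3; lower panel, FPKM of the same genes in Tak-1, with described genes in blue. The horizontal axis gives gene order and not distance, dashed lines mark Mapoly0005s0086, Mapoly0005s0089 and Mapoly0005s0102, and the mean differences of the other genes lie between -0.67 and 0.31.

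Finally, the genes with the most similar levels over the 3 averages were found by the Euclidean distance of log2(FPKM + 1). They were Mapoly0016s0048 (0.027) and Mapoly0002s0333 (0.075) for Mapoly0005s0086, and Mapoly0149s0014 (0.048) and Mapoly0031s0078 (0.069) for Mapoly0005s0089. For Mapoly0002s0100 they were Mapoly0056s0143 (0.026) and Mapoly0004s0259 (0.046), and for Mapoly0005s0102 they were Mapoly0005s0173 (0.043) and Mapoly0049s0011 (0.044). Over only 3 averages such likeness is common, as between 5 and 15 genes lay within a distance of 0.1 of each of the 4 genes.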

How the data were processed

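RNA from 3-week-old thalli of MpBHLH12ox#2, MpBHLH12ox#3 and Tak-1 was sequenced, with 3 replicates in each of 3 groups by the labels. The authors mapped the reads with Bowtie2 to the JGI genome and determined fragments with HTSeq, and the submitters' processing notes also name Cuffdiff 2.2.1. The deposited table holds FPKM of 19287 genes, averaged by the authors within each group. How they averaged, which annotation they used and whether genes were filtered were points not given in the sources used here. A test across replicates made by the authors was not used here. Without replicate values, the planned linear model was not run, and the precision of single values is unknown.

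From the deposited FPKM, differences of log2(FPKM + 1) between each line and Tak-1 were computed, and the 13324 genes that reached 1 FPKM in at least 1 group served as background. The 4 genes and all lists were chosen with earlier results of these data known. Other genes were named by their annotation as PAL, C4H or 4CL in the study's list, as neighbours on scaffold 5 (up to 10 numbers away), or as the 2 nearest genes in level. Mapoly0005s0110, and Mapoly0005s0082 and Mapoly0005s0112 as the ends of a range, were named after their values were seen. No identifier of the table matched the reference of assembly MpTak2_v7.1 (0 matches), so no sequence is given. The scripts were tested on simulated data. Python 3.11.15, numpy 2.4.6, pandas 2.3.3 and matplotlib 3.10.9 were used.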

Additional observations from a re-analysis of the deposited data

How the results depend on the processing

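The alternatives were pseudocounts of 0.1 and 5, setting the median ratio of each line to 0, sizes of 0.5 and 2, no filter and a mean of 5 FPKM or more. Equal FPKM totals and the PAL sum without scaffold 70 or without Mapoly0132s0049 were chosen after seeing the data. None of the 4 genes reached the size in both lines under any setting that applies to single genes. Of all 13324 genes, 3.08% reached a size of 1 as reported and 11.2% a size of 0.5. The filters and the size of 2 could not change the count for the 4 genes. Each of them averaged more than 5 FPKM in every group, and none reached a size of 1. Leaving out each replicate was not run, and no paired analysis was possible because replicates were averaged within the groups.

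The FPKM total was 3.75% lower in MpBHLH12ox#2 and 4.37% lower in MpBHLH12ox#3 than in Tak-1. Set to equal totals, the mean log2 difference was 0.23 for Mapoly0005s0089, against 0.17 as reported, 0.75 for the PAL sum, against 0.69, and 0.37 for the 4CL sum, against 0.31, since this raises both lines by construction. Without Mapoly0132s0049, the PAL sum had 0.26. With a pseudocount of 5, Mapoly0005s0089 had 0.16. Of the 10 PAL genes, 1 reached a size of 1 in both lines and 4 a size of 0.5. Among all 13324 genes, the shares were 3.08% and 11.2%. No PAL gene reached a size of 2, for which no share of all genes was computed. Mapoly0005s0102 was lower in MpBHLH12ox#2 and higher in MpBHLH12ox#3 as reported, a direction that no pseudocount can change. Its log2 differences there were -0.08 and 0.11. They were -0.09 and 0.11 with the median ratio of each line set to 0, and -0.03 and 0.17 with equal totals. Whether these differences exceed the replicate spread was not tested. Depth was not analysed here.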
